A study of Mus musculus with 8 samples.

Results

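Non-dividing oligodendrocyte precursor cells of the mouse dentate gyrus were chosen by the genes detected in each cell's single-cell RNA profile. A barcode was a member if it had over 500 genes and under 10% mitochondrial UMIs, at least 3 of the 5 precursor genes Pdgfra, Cspg4, Lhfpl3, C1ql1 and Cacng4, and few or no genes of other states. The limits were at most 1 of the myelin genes Mog, Mag, Mobp, Opalin and Cldn11, at most 1 of the committed-precursor genes Gpr17, Bmp4, Neu4 and Enpp6, at most 2 of the cycle genes Mcm2 to Mcm7, Pcna, Top2a, Cdk1 and Ccnb1, and at most 1 of Cx3cr1, Cldn5, Aldoc, Gja1, Stmn2 and Eomes. Of 26036 barcodes 24376 were kept on genes and mitochondrial share, and 1459 of these were members. They comprised 125 cells at 1 month, 212, 151 and 363 cells in the 3 experiments at 2 months, and 56, 246 and 306 cells in the 3 experiments at 6-8 months.

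The mice were heterozygous for Ki67-creERT2, Nestin-GFP and a tdTomato reporter on a mixed C57BL/6J and CD1 background. Tamoxifen (100 mg/kg by gavage on 6 days, with the mice killed on day 8) made the recombinase active in cells that expressed Ki67, so tdTomato marked cells cycling in that week, and all ages received it. Each experiment pooled 2 to 5 male and female mice, and cells were sorted on GFP and tdTomato, so only precursors that fell in the sorted gates were seen. The first experiment at 2 months was sequenced as 2 libraries, of which one was labelled GFP+tdT- and the other GFP+tdT+ and GFP-tdT-. They gave 188 and 24 members and were summed. Libraries at 2 months used chemistry Version 2 of the 10x kit and all others Version 3, so that 2 months and chemistry cannot be told apart. The labels give 6 months where the study's methods give 6-8 months.

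Oligodendrocyte precursors are the glial cells that divide throughout life in the brain and give rise to myelinating oligodendrocytes. They respond to platelet-derived growth factor through its alpha receptor, the product of Pdgfra, and carry the chondroitin sulfate proteoglycan NG2, the product of Cspg4. They also receive synaptic input from neurons, and before they myelinate they pass through a committed state marked by Gpr17 and Bmp4.

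The limit on committed-precursor genes removed most cells that carried the precursor markers. Of 6501 kept cells with at least 3 of the 5 markers, 1459 (22.4%) were members, 4790 (73.7%) had 2 or more of Gpr17, Bmp4, Neu4 and Enpp6, and 3860 were left out for that reason alone. Members made up 14.5% of these marked cells at 1 month, 52.2%, 59.4% and 69.1% at 2 months, and 37.3%, 14.6% and 11.7% at 6-8 months. The cells left out for that reason alone were deeper than the members in every experiment. The median was 6456 UMIs against 5256 at 1 month. At 2 months it was 2728 against 2395, 1462 against 1316, and 2076 against 1877. At 6-8 months it was 4749 against 4315, 6887 against 5595, and 8231 against 6496. When the 20288 kept cells with at least 2000 UMIs were first drawn down to 2000, the same rule found 3319 cells, of which 920 were members. Shallower cells were left out there, among them 498 of the 1459 members. Membership thus moved with the depth of a cell, and 1116 of the 1459 members carried 1 of the 4 committed-precursor genes.

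**Figure D1:**
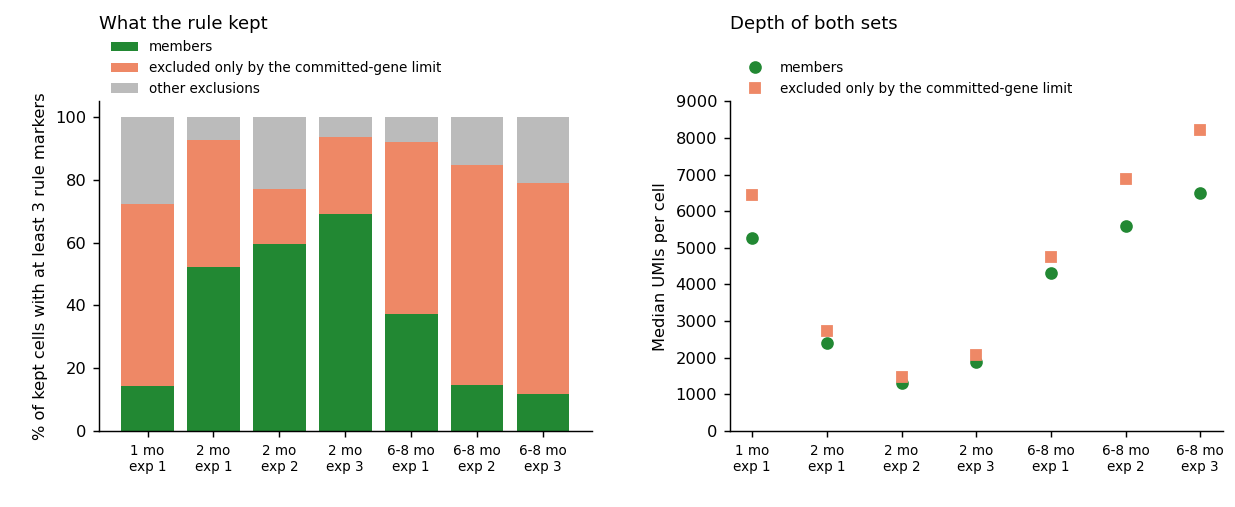
Left, share of kept cells with at least 3 of the 5 markers that were members, that were excluded only by the limit on committed-precursor genes, or that were excluded otherwise, in each of 7 experiments (% on the y axis). Right, median UMIs per cell of the first 2 sets. Members were 52.2% to 69.1% of marked cells in the shallower experiments at 2 months and 11.7% in the deepest experiment, and in all 7 experiments the excluded cells had the higher median.

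Just inside the marker threshold lay 398 members with exactly 3 markers, while 430 had 4 and 631 had all 5. Just outside it lay 229 cells with 2 markers that met every other limit, of which the last 2 experiments at 2 months held 76 and 81. Members with exactly 2 of the cycle genes numbered 8 at 1 month, 8, 4 and 16 at 2 months, and 7, 19 and 37 at 6-8 months. Cells that met all other limits but had exactly 3 cycle genes numbered 9 at 1 month, 2, 1 and 2 at 2 months, and 1, 16 and 8 at 6-8 months.

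The marker levels were fixed by the rule, which used these genes to choose the cells, and are given as a description only. Levels are UMIs of a gene summed over the members of an experiment and scaled to a total of 1000000 UMIs (CPM), from 3′ counts, and are compared within a gene only. Pdgfra, the growth factor receptor, was at 1255 CPM at 1 month, at 1514, 1232 and 1109 CPM at 2 months, and at 1611, 1242 and 1294 CPM at 6-8 months. These values overlapped between ages. C1ql1, which codes for a secreted protein of the C1q family, was at 1578 CPM at 1 month, at 1415, 1870 and 1864 CPM at 2 months, and at 1348, 1525 and 1659 CPM at 6-8 months, again with overlap. Lhfpl3, a membrane protein gene, was at 1524 CPM at 1 month, at 892, 815 and 835 CPM at 2 months, and at 1340, 1626 and 1557 CPM at 6-8 months. The experiments at 2 months were the lowest for Lhfpl3, and likewise for Cacng4, an auxiliary subunit of AMPA receptors, and for Cspg4. In oligodendrocytes (at least 3 of the 5 myelin genes and at most 1 precursor marker, 6734 cells) the same 5 genes averaged between 1.54 CPM for Cacng4 and 7.93 CPM for Lhfpl3.

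Genes that mark other cell types differed in level by type. The rule itself allowed at most 1 of Cx3cr1, Cldn5, Aldoc, Gja1, Stmn2 and Eomes per cell. Their levels, of which that of Aldoc was not low, thus depended on selection and say nothing of purity. The 9 microglial genes summed to 40.7 to 50.3 CPM in 6 experiments. They summed to 186 CPM in the first experiment at 2 months, where P2ry12, a microglial receptor, was at 30.6 CPM. It was at 0 CPM in 5 experiments and at 0.565 CPM in the third experiment at 6-8 months. Acta2, the smooth muscle actin, was at 128 CPM in the first experiment at 2 months and at no more than 4.74 CPM elsewhere. The 12 astrocyte and stem cell genes summed to between 6318 and 10006 CPM, of which Apoe, the lipid carrier, gave 4434 to 7674 CPM, and Aldoc, a glycolytic enzyme gene found in 54.1% of members, gave 290 to 426 CPM. The same list averaged 10631 CPM in kept cells with at most 1 marker. The 12 neuronal genes summed to 395 to 655 CPM, against a mean of 2224 CPM in those cells, and Sox11, a factor of immature neurons, gave 75.8 to 218 CPM of it. The 10 oligodendrocyte genes, of which the rule limited 5, summed to 25.5 CPM at 1 month, to 172, 972 and 277 CPM at 2 months, and to 119, 73.4 and 70.0 CPM at 6-8 months. Their highest sum fell in the experiment with 1977 oligodendrocytes among 4059 kept cells, and their lowest in the experiment with 18 among 3288. The part of free oligodendrocyte RNA in these sums was not tested. No barcode sequence was shared between libraries among the 1459 members, whereas 51 were shared among the kept cells. Doublets with other cells were limited only by the rule itself.

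**Figure D2:**
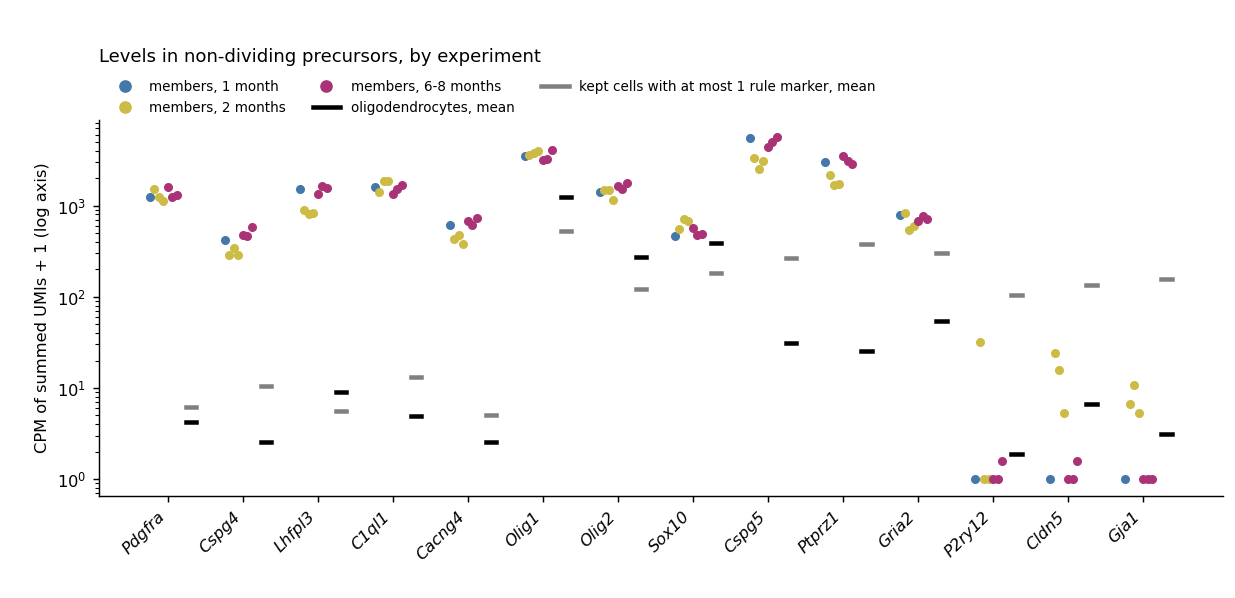
CPM + 1 on a log axis for 14 genes. Each point is the summed members of an experiment, coloured by age (1 at 1 month, 3 at 2 months, 3 at 6-8 months), and bars mark the mean over experiments in oligodendrocytes (black) and in kept cells with at most 1 rule marker (grey). The 5 markers lie between 283 and 1870 CPM in members and at or under 12.3 CPM in both comparison sets, and P2ry12, Cldn5 and Gja1 are at or under 30.6 CPM, the last 2 being genes that the rule limited.

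The transcription factors of the lineage were present in every experiment. Olig1 was at 3461 CPM at 1 month, 3611, 3804 and 4005 CPM at 2 months, and 3168, 3269 and 4028 CPM at 6-8 months. Olig2, which specifies the lineage, was at 1409 CPM at 1 month, at 1468, 1463 and 1151 CPM at 2 months, and at 1635, 1513 and 1752 CPM at 6-8 months. Olig1 overlapped between ages. For Olig2 every experiment at 6-8 months lay above every younger one, with a log2 fold change of 0.22 ± 0.22 against 1 month (edgeR adjusted p = 0.969) and 0.21 ± 0.16 against 2 months (adjusted p = 0.333). Sox10, a regulator kept throughout the lineage, ranged from 469 to 717 CPM in members and averaged 389 CPM in oligodendrocytes. Olig1 averaged 1239 CPM and Olig2 averaged 270 CPM in oligodendrocytes, below every experiment of the members. Sox4 ranged from 344 to 702 CPM and Tcf4, partner of many basic helix-loop-helix factors, from 571 to 856 CPM.

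Genes of the matrix, of adhesion and of synaptic signalling were read in every experiment. Cspg5 (neuroglycan C) ranged from 2533 to 5685 CPM and Ptprz1, a receptor phosphatase and proteoglycan, from 1679 to 3471 CPM, against means of 30.2 and 24.1 CPM in oligodendrocytes. Bcan, the brain proteoglycan brevican, ranged from 1017 to 1454 CPM, and Matn4 (matrilin) from 691 to 1077 CPM. Among receptors, the AMPA subunit Gria2 ranged from 540 to 819 CPM, the metabotropic receptor Grm5 from 156 to 230 CPM, and Gabbr1, of the GABA-B receptor, from 263 to 346 CPM. Gabbr1 averaged 294 CPM in oligodendrocytes as well. Kcnip3, a potassium channel interacting protein, ranged from 455 to 628 CPM. The neurotrophin receptor Ntrk2 ranged from 354 to 563 CPM and Spry1, an inhibitor of growth factor signalling, from 148 to 483 CPM. Spry1 was at 148 to 201 CPM at 2 months and at 327 CPM or more in the other 4 experiments.

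Ranked by the smallest difference over the 7 experiments between members and all other kept cells, on a log2(CPM + 10) scale, the 20 leading genes held 3 rule markers and 17 genes that the rule did not name. The other kept cells contain the 4790 marked cells with 2 or more committed-precursor genes, so differences from kept cells with at most 1 marker (17402 cells) are given as well. Both are descriptions, since the same cells were used to choose the members. Pcdh15, a protocadherin, led the list. It ranged from 299 to 571 CPM in members, at least 1.19 above the other kept cells and 3.82 to 5.19 above cells with at most 1 marker. Ccnd1 (cyclin D1, which drives entry into the cycle) was at 633 CPM at 1 month, at 517, 290 and 431 CPM at 2 months, and at 697, 616 and 749 CPM at 6-8 months in these non-dividing cells, and averaged 877 CPM in dividing precursors and 5.20 CPM in oligodendrocytes. The imprinted noncoding RNA Meg3 was at 212 CPM at 1 month, 1333, 540 and 764 CPM at 2 months, and 287, 251 and 370 CPM at 6-8 months. The list also held Cntn1 (contactin), the sodium channel gene Scn2a, the AMPA subunit gene Gria3, the neurexin gene Nrxn3, its ligand gene Nxph1, and Xylt1 and B3gat2, which code for enzymes that build glycan chains. The rest were Igfbp3, Usp24, Shc4, Ntrk3, Epha5, Csmd2 and Plppr5. The smallest difference from cells with at most 1 marker ranged from 1.65 for Csmd2 to 5.62 for Pdgfra. Committed precursors (4495 cells with 2 or more committed-precursor genes, under the limits on myelin and other types) had levels near those of members. Mean CPM in members and in committed precursors was 426 and 361 for Pcdh15, 562 and 494 for Ccnd1, and 814 and 725 for Cntn1. It was 458 and 433 for Nxph1 and 67.8 and 49.8 for Csmd2. These genes were thus not particular to the members.

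Spread among members was measured by the Fano factor, the variance over the mean of a gene's UMI count within an experiment. In members with at least 2000 UMIs, drawn down to 2000, it had a median of 1.03 over 2551 genes. These averaged over 0.1 UMI per cell in each of 6 experiments. The second experiment at 2 months, with 143 of 151 members under 2000 UMIs, was left out, and 142 of 363 members entered from the third. Fos, an immediate early gene, had a mean Fano factor of 5.94 and a smallest of 3.73, Jun a mean of 4.03, and Jund a mean of 2.45. Hes5, an effector of Notch signalling that holds precursors back from differentiation, had a mean of 2.34, and Fabp7, a fatty acid binding protein of immature glia, a mean of 1.91. Apoe had a mean of 3.69. Malat1, a nuclear noncoding RNA, had a mean of 42.7, Actb, the cytoskeletal actin, a mean of 7.12, and Xist, which is made in female cells only, had a mean of 4.69 in these pools of both sexes. Summed Xist was at 3414 CPM in the first experiment at 2 months and at 558 to 1713 CPM in the other 6, while Y-linked Eif2s3y was lowest in that experiment at 21.1 CPM. Sex was not balanced alike between experiments, and its part in the differences below was not tested.

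The reporter was read in the members. The intact tdTomato locus was at 1996 CPM at 1 month, at 1570, 1222 and 1203 CPM at 2 months, and at 2709, 2770 and 2555 CPM at 6-8 months. GFP from the Nestin transgene was at 736 CPM at 1 month, 272, 663 and 731 CPM at 2 months, and 647, 610 and 370 CPM at 6-8 months. A cell was called recombined, by the limits in the study's methods, on few intact reads and several reads of the 3′ elements WPRE and bGHpolyA. For Version 2 these were under 4 intact and over 1 recombined read, and for Version 3 under 8 and over 2. This gave 59 members: 2 of 125 (1.60%, exact 95% interval 0.194 to 5.66) at 1 month, 11 of 212, 3 of 151 and 30 of 363 (8.26%) at 2 months, and 2 of 56, 2 of 246 (0.813%) and 9 of 306 (2.94%) at 6-8 months. The intervals cover counting error only. In the first experiment at 2 months, 10 of 24 members in the library labelled with GFP+tdT+ cells were recombined against 1 of 188 in the GFP+tdT- library. A read of either 3′ element was found in 12.6% to 23.2% of members and in 6.69% to 20.2% of oligodendrocytes, and in the second experiment at 6-8 months the oligodendrocytes had the higher share (13.8% against 12.6%).

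Members were 3.8% of kept cells at 1 month, 5.06%, 3.72% and 20.3% at 2 months, and 2.22%, 7.30% and 5.93% at 6-8 months. The mean was 9.71% ± 9.23 (SD, n = 3) at 2 months and 5.15% ± 2.62 (n = 3) at 6-8 months, which an exact two-sided permutation test did not separate (p = 0.7, adjusted over 4 values 0.7). The smallest p that 3 against 3 experiments allow is 0.1. The share was also taken after drawing down to 2000 UMIs, over kept cells with at least 2000 UMIs only, and the direction turned. It was then 6.12%, 0.517% and 12.8% at 2 months and 4.06%, 30.3% and 28.2% at 6-8 months, with 14.6% at 1 month (exact p = 0.3). Dividing precursors, with at least 3 of the cycle genes, were 33 of 158 precursors at 1 month (20.9%), 1.85%, 0.658% and 1.09% at 2 months, and 1.75%, 14.6% and 13.3% at 6-8 months (exact p = 0.2, adjusted 0.4). After cells with at least 2000 UMIs were drawn down to that number, the others being left out, the dividing share was 7.11% at 1 month. It was 1.52%, 8.33% and 2.01% at 2 months, and 0%, 3.05% and 4.65% at 6-8 months. The 8.33% stands for 1 of 12 precursors, and 0 of 96 has an exact 95% upper limit of 3.77%, for counting error only. The recombined share was scored with lower read limits at 2 months than at 6-8 months, and differed by sort in the first experiment at 2 months. It averaged 5.15% ± 3.14 at 2 months and 2.44% ± 1.45 at 6-8 months (n = 3 each, exact p = 0.3, adjusted 0.4). Median UMIs per member were 1863 ± 540 at 2 months and 5468 ± 1096 at 6-8 months, without overlap (exact p = 0.1, adjusted 0.4).

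At 6-8 months against 1 month, both with chemistry Version 3, the members changed in few genes. UMIs were summed over the members of each experiment and fitted in edgeR's quasi-likelihood model with 1, 3 and 3 experiments, so that the lone experiment at 1 month was taken to vary like the others. Of 5009 genes tested 4 passed an adjusted p of 0.05, which is 0.0799% of them, and 264 had an unadjusted p under 0.05. Of these, 3 were higher (0.0599% of the genes tested), Fosb and B230209E15Rik among them, and Ndn was lower (0.02%). B230209E15Rik, a gene model of a kind (names ending in Rik) that the naming rule left out, and named here after its values were seen, was at 11.2 CPM at 1 month, at 57.4, 54.0 and 66.8 CPM at 2 months, and at 53.3, 72.6 and 59.3 CPM at 6-8 months. Without the third experiment at 6-8 months, which held the most UMIs, edgeR called 0 genes (175 at an unadjusted p under 0.05), and DESeq2 on all experiments also called 0 (86 unadjusted). Without the first experiment at 2 months edgeR called 27, and likewise 27 with the experiments at 1 and 6-8 months only.

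Fosb (chr7:19302696-19310051, minus strand, GRCm38), an AP-1 transcription factor gene induced within minutes of a stimulus, was at 9.56 CPM at 1 month (6 UMIs), at 24.9, 4.91 and 14.5 CPM at 2 months, and at 65.6, 80.5 and 84.7 CPM at 6-8 months. Every experiment at 6-8 months lay above every other. The log2 fold change was 3.05 ± 0.50 (edgeR adjusted p = 0.00829) against 1 month and 2.17 ± 0.31 (adjusted p = 1.03e-05) against 2 months. The other immediate early genes had the same sign against 1 month without passing the test. Junb was at 49.4 CPM at 1 month, at 55.5, 19.6 and 77.0 CPM at 2 months, and at 102, 159 and 141 CPM at 6-8 months (log2 fold change against 1 month 1.51 ± 0.37, adjusted p = 0.199). Fos was at 244 CPM at 1 month, at 165, 177 and 381 CPM at 2 months, and at 393, 497 and 490 CPM at 6-8 months. These genes also respond to tissue dissociation. In other cells of the same libraries, those kept with at most 1 precursor marker and at most 1 myelin gene of the rule, Fosb was at 26.5 CPM at 1 month, at 75.7, 21.3 and 55.1 CPM at 2 months, and at 51.5, 103 and 102 CPM at 6-8 months. The higher values at 6-8 months than at 1 month were thus not particular to the members, and the part of dissociation was not tested.

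Ndn (chr7:62346569-62350262, plus strand), an imprinted gene for necdin, a protein that restrains growth in neural cells, was at 249 CPM at 1 month, at 123, 142 and 94.4 CPM at 2 months, and at 102, 97.9 and 102 CPM at 6-8 months. The experiment at 1 month was the highest, and the values at 2 and 6-8 months overlapped. The log2 fold change was -1.30 ± 0.24 (adjusted p = 0.0127), lower in 3 of 3 experiments. In the other cells Ndn was at 234 CPM at 1 month, at 107, 189 and 101 CPM at 2 months, and at 166, 101 and 127 CPM at 6-8 months. Ndn kept its call with a cell set of 4 or more markers, with cells drawn down to 2000 UMIs and with the committed limit lifted, where the log2 fold change was -1.07 ± 0.21 (adjusted p = 0.00760). It lost the call with DESeq2 and without the third experiment at 6-8 months. The log2 fold change ranged from -1.30 to -1.29 when experiments were left out in turn.

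**Figure D3:**
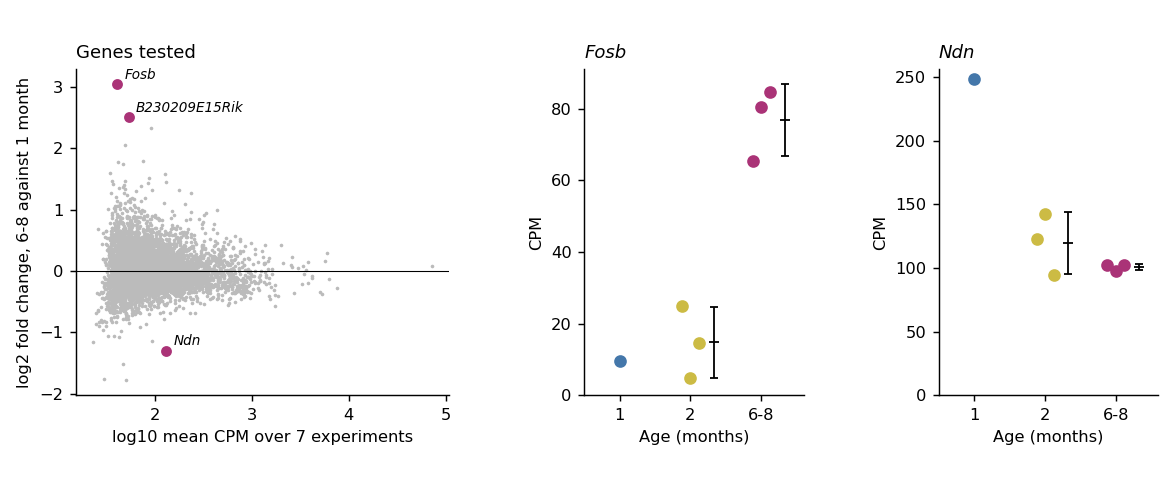
Left, log2 fold change at 6-8 months against 1 month for genes tested in members, against log10 of the mean CPM over 7 experiments, with 3 genes past an adjusted p of 0.05 named. Right, CPM of Fosb and Ndn in members by age, 1 point per experiment, with mean and SD (n = 3) beside the points at 2 and 6-8 months. Fosb is highest at 6-8 months and Ndn at 1 month.

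Genes were also read by role at 6-8 months against 1 month, where the median log2 fold change over all 5009 genes was 0.01. Of 25 immediate early genes 8 were tested, Fosb alone of them passed, and all 8 had a log2 fold change above 0 with a median of 0.76. The 5 precursor markers of the rule had a median of 0.12, and no gene of these markers or of the lists that follow passed. Of 23 growth factor receptors, ligands and their inhibitors 11 were tested, 8 were above 0 and the median was 0.42, with Spry4 at 1.33 ± 0.35 (adjusted p = 0.281) and Dusp6 at 1.30 ± 0.40 (adjusted p = 0.544). Ion channels and pumps had a median of 0.36 over 18 genes, and the Notch genes and brakes on differentiation a median of 0.35 over 15, with the Notch target Hes1 at 1.45 ± 0.46 (adjusted p = 0.576). Extracellular matrix and adhesion genes had a median of 0.18 over 21, glutamate and GABA receptors 0.20 over 10, and lineage transcription factors 0.14 over 19. The 13 tested genes of cholesterol synthesis had a median of 0.11. Ribosomal protein genes were above 0 in 5 of 61 cases (median -0.25), and genes of oxidative phosphorylation in 8 of 52 (median -0.10). Of 36 cycle genes outside the rule 4 were abundant enough to test (median -0.16), and of 16 cycle inhibitor genes 6 (median -0.10). Cdkn1b, the inhibitor p27, was at 95.6 CPM at 1 month, at 36.4, 49.1 and 23.2 CPM at 2 months, and at 61.5, 73.4 and 66.1 CPM at 6-8 months. The 5 tested genes of antigen presentation and inflammation had a median of 0.51, without a call.

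**Figure D4:**
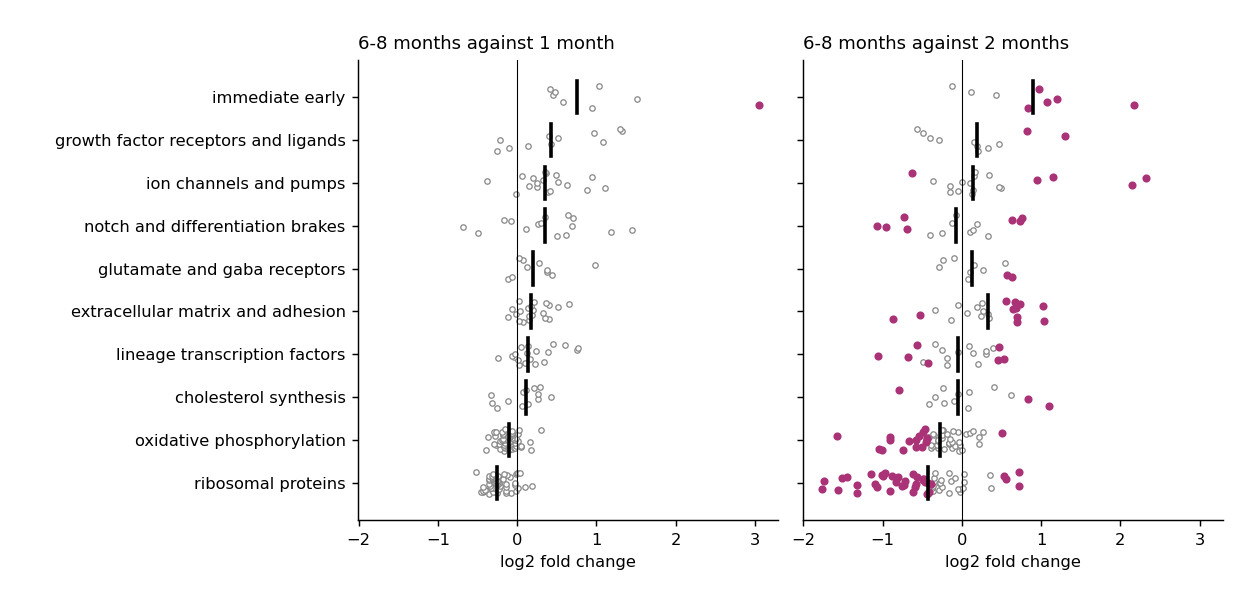
Log2 fold change in members for the tested genes of 10 lists (rows), at 6-8 months against 1 month (left) and against 2 months (right). Each point is a gene, filled where the adjusted p is under 0.05, and the black bar is the list's median. On the left only Fosb is filled. On the right, where age and chemistry cannot be told apart, 34 ribosomal protein genes are filled and lower.

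A wider choice of cells gave more genes. With the rule applied to cells drawn down to 2000 UMIs (470 cells at 1 month and 96, 986 and 1416 at 6-8 months, full counts summed) 77 genes passed at 6-8 months against 1 month, 50 higher and 27 lower. With the limit on committed-precursor genes lifted, a choice made after the number of cells it removed had been seen (625 cells at 1 month and 138, 1430 and 2063 at 6-8 months), 26 genes passed, 19 higher and 7 lower. Both choices called the same 23 genes among them. The 5 named here were chosen after their values were seen. Maf, a basic leucine zipper factor, was at 17.9 CPM at 1 month and 115, 49.2 and 62.6 CPM at 6-8 months with the limit lifted (log2 fold change 1.88 ± 0.34, adjusted p = 0.00365). Pou3f1, a POU factor of glial lineages, was at 216 CPM at 1 month and 515, 450 and 515 CPM at 6-8 months (1.18 ± 0.25, adjusted p = 0.0165), and at 69.7 to 144 CPM at 2 months. Irx1, a homeobox gene, rose by 1.56 ± 0.27 and Spry4, a feedback inhibitor of receptor tyrosine kinases, by 1.28 ± 0.27 on the log2 scale. Tmem163, a zinc transporter gene, fell by 1.41 ± 0.28. In the 1459 members themselves these 5 genes had the same sign, with adjusted p from 0.152 for Maf to 0.340 for Tmem163.

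The wider sets also took in cells in other states, and in unequal shares. Of the 470 cells at 1 month in the drawn-down set 15.3% had 3 or more cycle genes at full depth, against 3.12%, 10.5% and 12.4% at 6-8 months. In that set Stmn1, a microtubule regulator of immature and dividing cells, was at 711 CPM at 1 month and 206, 182 and 184 CPM at 6-8 months (log2 fold change -1.95 ± 0.22, adjusted p = 6.59e-15), and Hmgb2, a chromatin protein of cycling cells, fell by 0.80 ± 0.22 (adjusted p = 0.0281). With the committed limit lifted but the limit on cycle genes kept, the log2 fold changes were -0.41 for Stmn1 and -0.29 for Hmgb2, with adjusted p = 0.999 for both. In that second set Bcas1, a gene of early myelinating cells, fell by 1.05 ± 0.22 (adjusted p = 0.0183), from 482 CPM at 1 month, and Bmp4, itself a gene of the rule, fell by 2.04 ± 0.27. In the members Bcas1 was at 180 CPM at 1 month and 127, 177 and 203 CPM at 6-8 months.

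At 6-8 months against 2 months 1543 of 5009 genes passed (30.8%), 831 higher (16.6%) and 712 lower (14.2%), and age and chemistry version cannot be told apart in this contrast. The experiment at 1 month shares Version 3 with 6-8 months. Its CPM lay nearer the mean at 6-8 months than that at 2 months, on a log2(CPM + 10) scale, for 1375 of the 1543 genes (89.1%) and for 62.8% of the 3466 genes that did not pass. Of the 24 genes with the largest changes that the naming rule picked, 23 did so, the exception being AC160336.1. Lars2, a mitochondrial leucine tRNA synthetase gene, was at 210 CPM at 1 month, 7.66, 4.91 and 4.36 CPM at 2 months, and 82.0, 388 and 115 CPM at 6-8 months (log2 fold change 5.14 ± 0.58, edgeR adjusted p = 3.00e-07). Khdrbs3 and Hnrnpa0, which code for RNA-binding proteins, were higher by 2.83 ± 0.24 and 2.63 ± 0.19 and were likewise high at 1 month. Rpl23a, a ribosomal protein gene, was at 222 CPM at 1 month, 952, 982 and 998 CPM at 2 months, and 197, 167 and 169 CPM at 6-8 months. Igsf9b, an adhesion gene, was at 71.7 CPM at 1 month, 492, 432 and 362 CPM at 2 months, and 69.7, 105 and 126 CPM at 6-8 months. Ptgds, the prostaglandin D synthase of oligodendrocytes and meninges, was highest in the second experiment at 2 months (712 CPM), as was Mbp, a myelin protein gene (545 CPM).

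For some genes, named here after their values were seen, the experiments at 6-8 months lay above both younger ages. The share of the 5009 genes that did so is not given, and 2 months cannot be told apart from chemistry. The ordering is thus a description. Fosb is given above. Pou3f1 was at 289 CPM at 1 month, at 142, 73.6 and 95.9 CPM at 2 months and at 594, 511 and 537 CPM at 6-8 months. Angptl1, for a secreted angiopoietin-like protein, was at 65.4 CPM at 1 month, 49.8, 44.2 and 53.8 CPM at 2 months, and 131, 114 and 103 CPM at 6-8 months. Of these 3 genes Fosb passed the test against 1 month in the members, and the adjusted p was 0.312 for Pou3f1 and 0.793 for Angptl1. By role, and against 16.6% higher and 14.2% lower over all 5009 genes, 34 of 61 ribosomal protein genes were lower and 4 higher, 16 of 52 genes of oxidative phosphorylation were lower and 1 higher, and 9 of 21 tested matrix and adhesion genes were higher and 2 lower. Of the dissociation genes 5 of 6 tested were higher, Hspa8, a chaperone gene, by 1.00 ± 0.16.

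The age difference was also compared with that in oligodendrocytes of the same experiments, with the experiment as a block and the rule's genes left out. Of 6461 genes tested 11 passed (0.17%), 9 of them with the difference at 6-8 months against 1 month higher in members than in oligodendrocytes, and 656 had an unadjusted p under 0.05. The oligodendrocytes at 1 month were 18 cells, against 894 to 1660 in each experiment at 6-8 months. Map1b, a microtubule-associated protein of growing processes, was at 38.3 CPM in members at 1 month and at 65.6, 71.0 and 82.4 CPM at 6-8 months. In oligodendrocytes it went from 308 CPM to 71.9, 88.2 and 123 CPM, and the values thus lay on opposite sides of those at 1 month in the 2 cell types (difference 2.44 ± 0.33 on the log2 scale, edgeR adjusted p = 0.00669). For Hmgb2, Hist1h1c, Ppp1r14b, Slc1a2 and Clu the oligodendrocytes at 1 month were above those at 6-8 months, while in members the values at 1 month lay nearer those at 6-8 months. Slc1a2, a glutamate transporter gene, was at 281 CPM in members at 1 month and at 320, 321 and 342 CPM at 6-8 months, and in oligodendrocytes at 181 CPM and at 52.5, 43.0 and 48.1 CPM (difference 2.04 ± 0.30, adjusted p = 0.00814). Gatm, an enzyme gene of creatine synthesis, was at 477 CPM in members at 1 month and at 496, 380 and 426 CPM at 6-8 months, and in oligodendrocytes at 1918 CPM and at 3844, 2942 and 3186 CPM (difference -1.05 ± 0.18, adjusted p = 0.0221). Neither Ndn (difference 0.72 ± 0.40, adjusted p = 0.585) nor Fosb (-6.87 ± 9.31, adjusted p = 0.849) passed this test. Fosb was at 0 CPM in the oligodendrocytes at 1 month, so for that gene the test could not decide. The count was 29 without the second and 4 without the third experiment at 2 months, and 35 without the first and 3 without the second experiment at 6-8 months.

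**Figure D5:**
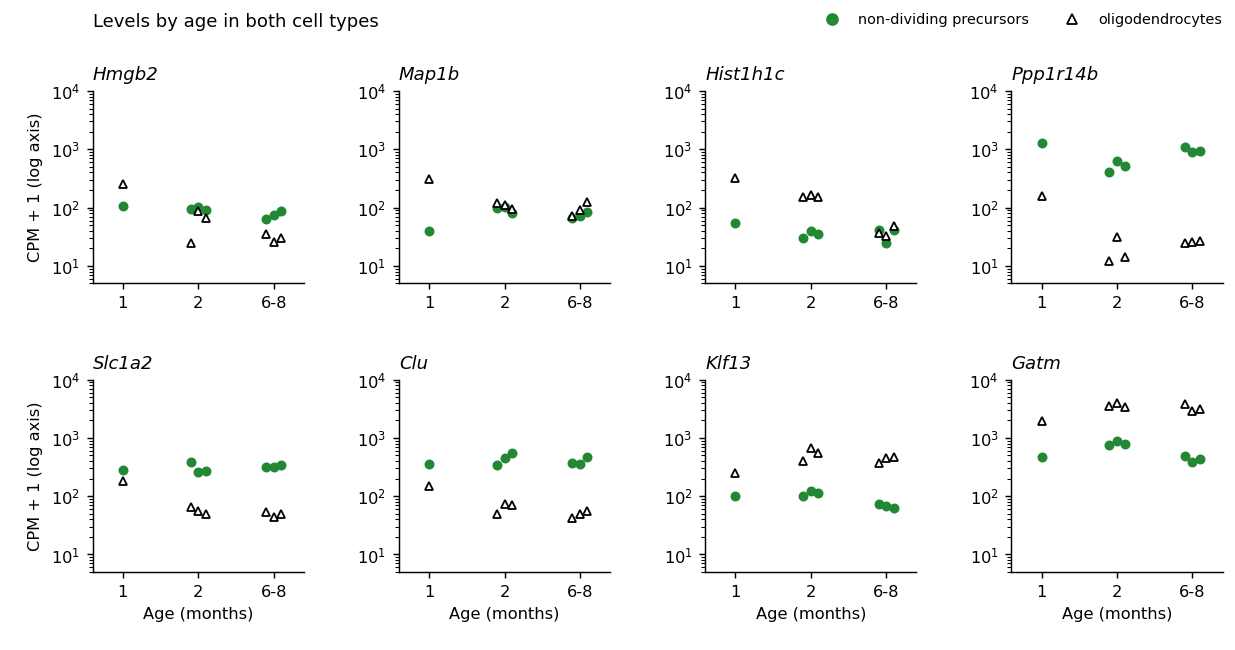
CPM + 1 on a log axis for the 8 genes named in the comparison with oligodendrocytes, by age in months. Filled circles are members and open triangles oligodendrocytes, 1 point per experiment. For the first 6 genes the oligodendrocytes at 1 month (18 cells) lie above those at 6-8 months, and for Klf13 and Gatm below.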

How the data were processed

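Cells of dentate gyrus from 7 experiments (8 libraries) were profiled with the 10x 3′ kit. The authors deposited raw UMI counts per gene and barcode, mapped with Cell Ranger 3.0.2 to mm10 with added reporter elements and merged without normalization. Removal of doublets by the authors was not repeated here, and barcodes were kept on genes and mitochondrial share only. Member counts were summed per experiment. Genes detected in 20% or more of the members at any age entered edgeR 4.0.16 (glmQLFit, TMM scaling, age as a 3-level factor, Benjamini-Hochberg adjustment). DESeq2 1.42.0 was an alternative. Summed members held 203707 to 1771074 UMIs per experiment. Genes were named by a rule: the 12 largest changes per direction past an adjusted p of 0.05 with at least 50 CPM and no overlap between ages (mitochondrial genes, the rule's genes and gene models named Gm with digits or ending in Rik left out), the leading members of gene lists, the rule's genes and the reporter. Members, lists and rules were chosen with earlier results of these data known. On simulated counts with 200 genes changed by a log2 fold of 2, 97.2% were recovered at 6-8 months against 1 month (5009 genes), 100% against 2 months and 49.2% in the comparison with oligodendrocytes (6461 genes). These shares hold for a change of that size and say nothing of smaller ones, such as -1.30 for Ndn. Some genes that were measured are not reported here.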

Additional observations from a re-analysis of the deposited data

Results flagged for a closer look

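For 8 genes the age difference (6-8 months against 1 month) in non-dividing precursors differed from that in oligodendrocytes of the same experiments by the interaction test in edgeR. On the log2 scale the difference was 2.56 for Hmgb2 (adjusted p = 0.0376), 2.44 for Map1b, 2.23 for Hist1h1c (adjusted p = 0.00711), 2.09 for Ppp1r14b, 2.04 for Slc1a2, 1.68 for Clu, -1.58 for Klf13 (adjusted p = 0.0498) and -1.05 for Gatm. All 8 rest on the 18 oligodendrocytes and 125 precursors of the lone experiment at 1 month. Klf13, a zinc finger factor gene, was at 100 CPM in precursors and 249 CPM in oligodendrocytes at 1 month, and at 73.8, 65.5 and 62.1 CPM and at 371, 447 and 460 CPM at 6-8 months. Ppp1r14b, a phosphatase inhibitor gene, was at 1304 CPM in precursors at 1 month and at 1115, 893 and 917 CPM at 6-8 months, and in oligodendrocytes at 156 CPM and at 23.7, 24.8 and 25.8 CPM.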

How the results depend on the processing

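Experiments carry numbers in the order of their accessions only. No paired analysis was possible because the labels tie no experiment of one age to an experiment of another. At 6-8 months against 1 month the count of 4 genes became 24 with no filter on low counts, 7 with filterByExpr, 0 with DESeq2 (86 at an unadjusted p under 0.05), 7 with at least 4 markers, 77 with the rule on cells drawn down to 2000 UMIs, 27 with Version 3 experiments only and 26 without the committed limit, and it ranged from 0 to 27 when experiments were left out in turn. All 4 genes were among those called without the first experiment at 2 months (27 calls). At 6-8 months against 2 months the count became 905 with DESeq2 and ranged from 898 to 1876. With total UMIs as scaling 933 of its 1506 calls were higher. In the comparison with oligodendrocytes filterByExpr gave 52 calls, and leaving out experiments gave 3 to 35. The difference in member share, -4.56 percentage points at 6-8 months minus 2 months, became 14.4 after drawing down to 2000 UMIs and ranged from -7.55 to 0.758 when experiments were left out, turning without the third at 2 months (0.758). The difference in dividing share, 8.68 points, became -1.39 after drawing down. Summed members held 203707 UMIs in the second experiment at 2 months, 244022 in the first at 6-8 months (56 members) and 627333 at 1 month (125 members). The cause of these shifts was not tested.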

Other observations

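Genes that the report did not name varied between experiments in the precursors. B2m, the light chain of class I molecules, was at 54.2 CPM at 1 month, at 255, 206 and 211 CPM at 2 months, and at 98.4, 65.5 and 89.2 CPM at 6-8 months, while H2-D1, a class I heavy chain, was at 233 CPM at 1 month, at 161, 128 and 190 CPM at 2 months, and at 201, 238 and 244 CPM at 6-8 months. Id2, an inhibitor of basic helix-loop-helix factors, was at 179 CPM at 1 month, at 605, 525 and 597 CPM at 2 months, and at 402, 223 and 278 CPM at 6-8 months. Neuronal genes were read at low levels: Snap25, of the vesicle fusion machinery, ranged from 65.5 to 147 CPM in precursors and averaged 3.57 CPM in oligodendrocytes, and Dcx, for doublecortin, ranged from 52.6 to 98.2 CPM.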
